A study of Homo sapiens with 9 samples.

Results

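CDKN2A, CDKN2B, MTAP, MIR31HG and DMRTA1 lie side by side on the short arm of human chromosome 9 (band 9p21). These 5 genes, of 18417 measured with a probe of their own, were chosen by their signals on the arrays described here, in a cell line in which this locus is known as deleted. Their levels are therefore given as a description, without a test. All 5 members had a probe, 1 each, and no filter on low values was applied. Cells of MDA-MB-231, a line from a human breast cancer that lacks hormone receptors and ERBB2 amplification, received no peptide (UT), a scrambled control peptide (SCR) or 2.5 μM SID peptide. SID peptide is a decoy of the SIN3 interaction domain, joined to a TAT sequence that carries it into cells, and SCR carries the same TAT sequence. All 3 groups were harvested at 24 hours, 3 arrays per group, and their total RNA was measured on Affymetrix human gene arrays. By the labels all groups share the same medium, and they name no genetic change in any group. That all arrays are of the same cell line was taken from the study and from source names described below. DNA was not measured here.

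CDKN2A encodes 2 unrelated proteins from alternative first exons. INK4A (p16) inhibits the cyclin D kinases CDK4 and CDK6, which keeps RB active, and ARF binds and restrains the ubiquitin ligase MDM2. CDKN2B encodes p15, a second inhibitor of CDK4 and CDK6 that is induced by TGF-β. MTAP cleaves methylthioadenosine, the by-product of polyamine synthesis, and returns it to methionine. MIR31HG is the long non-coding host transcript of miR-31, a microRNA studied for its part in breast cancer invasion, and DMRTA1 encodes a DM domain protein. In many cancers deletion of CDKN2A takes MTAP with it because they are neighbours.

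The sequences at the starts of these genes are given first, since the levels of their transcripts are what differed between arrays. Mature miR-31 comes from within MIR31HG (chr9:21512158-21512178, minus strand, GRCh38.p14), and its seed, bases 2 to 8, is in capitals.
hsa-miR-31-5p: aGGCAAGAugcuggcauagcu
The array holds a probe for MIR31 itself, which does not measure the mature miRNA apart from its precursor.

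CDKN2A has 2 annotated starts, and its single probe on the array stands for the gene as a whole, so that the transcripts of INK4A and ARF cannot be told apart. The 250 bases before each start are shown on the gene's own strand (GRCh38.p14, from RefSeq), with GC boxes, GGGCGG or CCGCCC on the other strand, in capitals. The upstream start is that of ARF (chr9:21995325-21995574, minus strand) and the downstream start that of INK4A (chr9:21974858-21975107, minus strand).
CDKN2A, upstream start: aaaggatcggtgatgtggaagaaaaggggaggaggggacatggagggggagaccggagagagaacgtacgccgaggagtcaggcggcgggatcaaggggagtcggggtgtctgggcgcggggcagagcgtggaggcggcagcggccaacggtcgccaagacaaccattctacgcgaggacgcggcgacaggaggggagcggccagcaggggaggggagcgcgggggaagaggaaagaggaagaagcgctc
CDKN2A, downstream start: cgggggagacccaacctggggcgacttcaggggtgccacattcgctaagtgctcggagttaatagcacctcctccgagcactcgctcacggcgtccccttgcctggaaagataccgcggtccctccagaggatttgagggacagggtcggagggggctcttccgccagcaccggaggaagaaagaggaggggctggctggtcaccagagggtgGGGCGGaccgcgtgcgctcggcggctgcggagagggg
The same stretch is shown for the other 3 members whose signals were low on SID arrays, CDKN2B (chr9:22009306-22009555, minus strand), MTAP (chr9:21802386-21802635, plus strand) and MIR31HG (chr9:21559799-21560048, minus strand).
CDKN2B: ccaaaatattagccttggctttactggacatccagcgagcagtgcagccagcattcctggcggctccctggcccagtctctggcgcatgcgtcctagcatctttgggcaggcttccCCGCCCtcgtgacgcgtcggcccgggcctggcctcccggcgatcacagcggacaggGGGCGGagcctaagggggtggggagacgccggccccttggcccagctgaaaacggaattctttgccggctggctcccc
MTAP: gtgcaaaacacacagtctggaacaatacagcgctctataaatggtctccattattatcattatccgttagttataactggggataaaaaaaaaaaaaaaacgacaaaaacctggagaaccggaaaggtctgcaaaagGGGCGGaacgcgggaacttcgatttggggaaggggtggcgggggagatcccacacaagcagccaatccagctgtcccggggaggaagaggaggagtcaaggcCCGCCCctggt
MIR31HG: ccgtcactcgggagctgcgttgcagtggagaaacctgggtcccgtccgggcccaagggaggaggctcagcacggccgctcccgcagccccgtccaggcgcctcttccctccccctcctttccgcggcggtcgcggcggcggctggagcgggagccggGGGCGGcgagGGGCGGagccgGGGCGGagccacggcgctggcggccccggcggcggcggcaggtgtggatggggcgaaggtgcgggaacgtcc
MIR31HG had the highest CpG content of the members, with 34 CpG dinucleotides in 250 bases, against 24 and 20 before the starts of CDKN2A, 18 for CDKN2B, 13 for DMRTA1 and 11 for MTAP. The median of 35116 promoter stretches of the same length was 11. GC boxes, counted on both strands, numbered 3 for MIR31HG, 3 for DMRTA1, 2 for CDKN2B, 2 for MTAP, and 0 and 1 for the upstream and downstream starts of CDKN2A, and 42.6% of all these stretches held at least 1. TGTCA, searched on both strands as the short site bound by TGIF1, a partner of SIN3A, occurred in 34.0% of all stretches and in none of these members. A match of letters, or its absence in 250 bases, is a description of the sequence.

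Before the levels are compared, the arrays themselves need a description. UT arrays, SCR replicate 3 and SID replicate 3 were alike, and the other 4 arrays, replicates 1 and 2 of both peptides, formed a set of their own. Across the 19460 probes paired with 1 gene symbol, Pearson's r was 0.995 between SCR replicates 1 and 2, 0.927 between SCR replicates 1 and 3, and 0.996 between SCR replicate 3 and SID replicate 3. In the headings of a supplementary list of the study, the replicate 3 arrays of SCR and SID carry a cell line prefix that the others lack, and SCR replicate 3 is headed with a later time than the labels give. Source names of the samples hold a number that increases by 1 from array to array, and all were taken as MDA-MB-231. Of 5 measured markers of this basal B line, VIM averaged 12.80 ± 0.07 (SD, n = 3) in UT and 3, CD44, CAV1 and AXL, were more than 1 log2 higher on replicates 1 and 2 of SCR and SID than on the other 5 arrays. The mean of the 5 was 11.57 to 11.61 on UT, 13.29 to 13.35 on SCR replicates 1 and 2, 13.29 to 13.31 on SID replicates 1 and 2, and 11.67 to 11.68 on replicate 3 of both. Of 6 epithelial markers 4, EPCAM, CDH1, GRHL2 and KRT19, were more than 1 log2 higher on SCR replicates 1 and 2 than on UT and replicate 3. KRT8 and KRT18 were not. The mean of all 6 was 9.03 to 9.24 on UT, 11.32 to 11.73 on SCR replicates 1 and 2, 10.03 to 10.08 on SID replicates 1 and 2, and 9.11 to 9.17 on replicate 3. On SID replicates 1 and 2, EPCAM (9.74 and 10.14) and KRT19 (11.59 and 11.41) were also above UT. CDH1 (7.05 and 7.26) and GRHL2 (6.50 and 6.53) were near UT there. Markers of other cell types moved with this split in part. PECAM1 of endothelial cells was at 5.73 to 6.03 on UT, 7.65 to 7.96 on SCR replicates 1 and 2, 6.33 to 6.99 on SID replicates 1 and 2, and 5.86 to 6.18 on replicate 3. The mean of the keratinocyte markers KRT5 and KRT14 was 8.41 to 8.50 on UT, 9.09 to 9.52 on SCR replicates 1 and 2, 8.09 to 8.14 on SID replicates 1 and 2, and 8.49 to 8.68 on replicate 3, and KRT5 was the one of them more than 1 log2 higher on SCR replicates 1 and 2 than on UT and replicate 3. PTPRC of leukocytes was between 4.84 and 5.07 on all 9 arrays, and the mean of 4 fibroblast markers between 6.93 and 7.27. The part of this split between arrays in the levels below was not tested.

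CDKN2A was lowest in SID replicates 1 and 2. Its log2 signal, normalized between arrays, was 10.97, 11.21 and 10.96 in UT replicates 1 to 3, 9.91, 10.03 and 10.97 in SCR replicates 1 to 3, and 7.85, 7.58 and 11.17 in SID replicates 1 to 3. Both low SID arrays lay below all other arrays, SCR replicates 1 and 2 lay between, and the replicate 3 arrays fell within the range of UT, so that SID as a group overlapped both controls. Group means were 11.04 ± 0.14 in UT, 10.31 ± 0.58 in SCR and 8.87 ± 2.00 in SID (SD, n = 3). The difference of SID and SCR was -1.44 over all arrays, -2.06 in replicate 1, -2.45 in replicate 2 and 0.19 in replicate 3. On the linear scale UT was 10.1-fold above the mean of SID replicates 1 and 2, and SCR replicates 1 and 2 were 4.78-fold above it. In RNA of whole cultures, fewer cells with a transcript and less of it per cell cannot be told apart.

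The cell line is known for loss of both copies of CDKN2A and MTAP. In UT the signal of CDKN2A was 10.96 to 11.21 and that of MTAP 9.31 to 9.51, above the array medians of 7.68 to 7.77 over all probes. On SID replicates 1 and 2 CDKN2A was at 7.85 and 7.58, near these medians, and MTAP at 6.43 and 6.36, below them. The table holds no measure of detection above background. Whether the DNA of the locus was present in the cells of each array was not tested.

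MTAP varied from array to array as CDKN2A did. Its log2 signal was 9.43, 9.31 and 9.51 in UT, 8.19, 8.35 and 9.37 in SCR, and 6.43, 6.36 and 9.52 in SID replicates 1 to 3. The order of the arrays was again SID replicates 1 and 2 lowest, SCR replicates 1 and 2 in the middle and the other 5 arrays highest, within 9.31 to 9.52. Group means were 9.42 ± 0.10 in UT, 8.64 ± 0.64 in SCR and 7.43 ± 1.80 in SID (SD, n = 3), and SID minus SCR was -1.76, -1.99 and 0.15 in replicates 1, 2 and 3. UT was 8.14-fold and SCR replicates 1 and 2 were 3.67-fold above SID replicates 1 and 2. Over the 9 arrays Pearson's r of MTAP with CDKN2A was 0.99, as a description, since all points share the split into sets of arrays.

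CDKN2B, the p15 gene on the other side of CDKN2A, had the same order with smaller gaps. Its log2 signal was 9.54, 9.80 and 9.49 in UT, 8.62, 8.61 and 9.40 in SCR, and 8.34, 8.10 and 9.15 in SID replicates 1 to 3. SID minus SCR was -0.28, -0.51 and -0.25 in replicates 1, 2 and 3, so that CDKN2B was the only member with SID below SCR in all 3 replicate numbers. Group means were 9.61 ± 0.17 in UT, 8.87 ± 0.45 in SCR and 8.53 ± 0.55 in SID (SD, n = 3). On the linear scale UT was 2-fold above SCR replicates 1 and 2 and 2.62-fold above SID replicates 1 and 2. The same folds were 2.11 and 10.1 for CDKN2A and 2.21 and 8.14 for MTAP. SCR replicates 1 and 2 thus differed from UT by a like amount for all 3 genes, whereas the log2 difference of SID from SCR in these replicates was -2.26 for CDKN2A, -1.88 for MTAP and -0.39 for CDKN2B.

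MIR31HG, the host transcript of miR-31, differed from the other members in SCR. Its log2 signal was 8.21, 7.78 and 8.29 in UT, 8.56, 9.56 and 8.69 in SCR, and 5.65, 6.23 and 8.80 in SID replicates 1 to 3. All 3 SCR arrays were above all 3 UT arrays, SID replicates 1 and 2 were below every other array, and SID replicate 3 was above UT. Group means were 8.09 ± 0.27 in UT, 8.94 ± 0.55 in SCR and 6.89 ± 1.68 in SID (SD, n = 3). SID minus SCR was -2.05 over all arrays and -2.92, -3.34 and 0.11 in replicates 1, 2 and 3. SCR replicates 1 and 2 were 8.73-fold above SID replicates 1 and 2, the widest gap among the 5 members between these arrays, and UT was 4.46-fold above them. Pearson's r over the 9 arrays was 0.78 with CDKN2A, 0.77 with MTAP and 0.46 with CDKN2B. The probe of MIR31 itself stayed between 6.23 and 6.47 on all arrays, so its low spread did not follow that of its host transcript.

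DMRTA1, on the far side of CDKN2B, was nearly level. Its log2 signal was 8.65, 8.95 and 8.72 in UT, 8.38, 8.31 and 8.80 in SCR, and 8.55, 8.60 and 8.65 in SID replicates 1 to 3. SCR replicates 1 and 2 were the lowest arrays, and the SID arrays lay at the low edge of UT or below it. Group means were 8.77 ± 0.16 in UT, 8.50 ± 0.27 in SCR and 8.60 ± 0.05 in SID (SD, n = 3), and the whole range over 9 arrays was 0.64 log2, against 3.63 for CDKN2A and 3.92 for MIR31HG. Its r with CDKN2A was 0.42 and with MIR31HG -0.15.

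Of the 5 members 4 had both SID replicates 1 and 2 below the other 7 arrays, an order found in 13.4% of all tested probes. All 3 steps, with SID replicates 1 and 2 below SCR replicates 1 and 2 and these below the other 5 arrays, held for 3 members, CDKN2A, CDKN2B and MTAP, and for 5.55% of all tested probes. The members were picked on this pattern, so nothing is read from these shares. Many genes elsewhere shared it: 981 probes had r over 0.9 with CDKN2A across the 9 arrays. The 5 most like it were EYA4 (r = 0.997), C15orf40 (0.996), H4C5 (0.996), ZNF174 (0.995) and MTAP (0.994). H4C5, a histone gene, had the widest spread of these. Its log2 signal was 11.69, 11.82 and 11.77 in UT, 9.98, 10.15 and 11.79 in SCR, and 6.51, 6.67 and 11.77 in SID replicates 1 to 3. EYA4, which encodes a transcriptional coactivator with phosphatase activity, was at 9.88, 9.81 and 9.90 in UT, 8.82, 8.99 and 9.87 in SCR, and 6.99, 6.65 and 9.96 in SID. Both followed the 3 steps of CDKN2A, and MTAP was the only one of the 5 from 9p21.

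Across the region, 28 neighbouring genes from MLLT3 to LINGO2, listed by position in the annotation (GRCh38.p14), had a probe of their own. KLHL9, an adaptor of a ubiquitin ligase that lies among the interferon genes, stood out. Its log2 signal was 10.78, 10.70 and 10.78 in UT, 7.98, 8.37 and 10.53 in SCR, and 6.20, 6.31 and 10.55 in SID replicates 1 to 3. Replicates 1 and 2 formed the same steps below UT as for CDKN2A, over a wider range and with UT 22.6-fold above SID replicates 1 and 2. Replicate 3 of SCR and SID lay close together, slightly below all UT arrays. SID and SCR thus overlapped each other, and neither overlapped UT. FOCAD, which encodes a focal adhesion protein, was at 9.87, 9.51 and 9.96 in UT, 7.91, 8.21 and 9.77 in SCR, and 7.26, 7.32 and 9.75 in SID. MOB3B, a kinase activator gene on the other side of the locus, was at 10.58, 10.66 and 10.68 in UT, 8.06, 8.38 and 10.47 in SCR, and 7.50, 7.95 and 10.67 in SID. These 3 genes of 28 (10.7%) followed all 3 steps, against 5.55% of all probes, and 4 of 28 (14.3%) had SID replicates 1 and 2 lowest, against 13.4%. The fourth was IFNE, an interferon gene with a narrow range.

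MLLT3, a reader of histone acylation, and LINGO2, a neuronal membrane protein gene, were also low on replicates 1 and 2 of both peptides. MLLT3 was at 11.12, 11.19 and 11.16 in UT, 9.79, 9.40 and 11.08 in SCR, and 9.78, 9.79 and 11.18 in SID replicates 1 to 3. LINGO2 was at 8.09, 8.13 and 8.22 in UT, 6.24, 6.0 and 7.22 in SCR, and 6.06, 6.07 and 7.21 in SID. In these 2 genes SCR and SID lay at the same height, unlike CDKN2A, MTAP and KLHL9. ELAVL2, a neuronal RNA-binding protein gene and the first gene beyond DMRTA1, had the opposite course in SCR, with 5.64, 5.72 and 5.67 in UT, 6.78, 7.27 and 5.87 in SCR, and 5.84, 5.69 and 5.70 in SID. C9orf72, at 8.87, 8.53 and 8.88 in UT, 8.18, 7.68 and 8.09 in SCR, and 8.58, 8.55 and 8.09 in SID, split the arrays in another way, with all 3 SCR arrays and SID replicate 3 below UT and below SID replicates 1 and 2.

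Between the genes with wide ranges lay genes with narrow ranges. The 12 type I interferon genes measured, which encode antiviral cytokines, ranged by only 0.17 to 0.42 log2 over the 9 arrays. Their signals lay between 4.35 and 6.06, below the array medians of 7.68 to 7.77 over all probes. At such low signals an unchanged gene cannot be told from one that is not expressed. TUSC1 ranged by 0.26 and CAAP1 by 0.39. CDKN2A-AS1, which overlaps CDKN2A on the other strand, ranged by 0.43, from 6.72 to 7.16, with SID minus SCR at 0.10. CDKN2A and CDKN2B also overlap CDKN2B-AS1, which had no probe of its own here, and MIR31HG overlaps IFNE and MIR31. Several interferon alpha genes are near-identical copies, so that the signal of each is uncertain.

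Differences of group means were tested with limma on all 9 arrays, where a call needed an adjusted p under 0.05 over all tested probes and a log2 difference above 1 or below -1. Between SID and SCR, 0 of 28 neighbours were called, and 0% of all tested probes were. The count at an unadjusted p under 0.05 was 1 neighbour, ELAVL2, and 1474 of all probes. Neighbours were higher in 12 cases and lower in 16, with a median of -0.01 beside 0.02 over all probes. KLHL9 differed by -1.27 (SE 1.19, adjusted p = 0.847), ELAVL2 by -0.90 (SE 0.30, adjusted p = 0.657), FOCAD by -0.52 (adjusted p = 0.921) and C9orf72 by 0.42. Against UT the calls were also 0 of 28, and 0% of all probes for SID and 0% for SCR, with 2432 and 2811 probes at an unadjusted p under 0.05. The differences of SID and SCR from UT, which share the UT arrays, were -3.07 and -1.79 for KLHL9, -1.93 and -1.67 for MOB3B, -1.70 and -1.66 for LINGO2, and -1.67 and -1.15 for FOCAD. The methods' t-test, adjusted in the same way, also gave 0 probes in each of the 3 comparisons.

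When only replicates 1 and 2 were compared, a choice made with earlier results of these data known, 2.64% of all probes were called lower and 1.77% higher in SID. Of the 28 neighbours 2 were called lower and 0 higher: KLHL9 fell by 1.92 (SE 0.16, adjusted p = 0.0165) and ELAVL2 fell by 1.26 (SE 0.19, adjusted p = 0.0294). The neighbours split 14 higher and 14 lower. FOCAD was lower by less than the fold limit, at -0.77 (adjusted p = 0.0339), and MOB3B was at -0.49 (adjusted p = 0.194). In replicate 3 the same difference was 0.02 for KLHL9, -0.02 for FOCAD, -0.18 for ELAVL2 and 0.19 for MOB3B. In the replicate 3 pair SID and SCR were thus close to each other for all 4 genes.

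The partners of the INK4 proteins were measured too, in a list of 15 cyclin D kinases, their cyclins, RB family members, E2F factors and other CDK inhibitors. Between SID and SCR 0 of 15 were called on all arrays and 0 of 15 on replicates 1 and 2. The members of the list split 5 higher and 10 lower, with a median of -0.27 beside 0.02 over all probes, and on replicates 1 and 2 the median was -0.44 beside 0.04. In replicate 3 the count was 11 higher and 3 lower, with a median of 0.03. CDK4, the kinase that p16 and p15 bind, was at 12.20, 12.61 and 12.46 in UT, 12.92, 13.03 and 12.40 in SCR, and 12.58, 12.50 and 12.61 in SID. On replicates 1 and 2, some of the 15 had an adjusted p under 0.05 inside the fold limit. The share of all probes that did so was not counted, so nothing is read from their number. SID minus SCR was -0.44 for CDK4 (adjusted p = 0.0491), -0.62 for cyclin D3, CCND3 (adjusted p = 0.0386), -0.50 for E2F1 (adjusted p = 0.0320), -0.53 for E2F2 (adjusted p = 0.0476) and, in the other direction, 0.56 for RBL2 (adjusted p = 0.0299).

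Among the pocket proteins, RB1 was at 11.24, 11.17 and 11.32 in UT, 12.18, 11.91 and 11.46 in SCR, and 11.54, 11.23 and 11.57 in SID. RBL1 (p107) was at 10.13, 9.79 and 10.15 in UT, 10.94, 10.80 and 10.15 in SCR, and 10.15, 9.40 and 10.21 in SID. For both, SCR replicates 1 and 2 were the high arrays and SID replicates 1 and 2 were near UT or below. The differences of SID and SCR group means were -0.40 for RB1 and -0.71 for RBL1. RBL2 (p130) ran the other way, at 0.37, with 10.29, 10.36 and 10.32 in UT, 8.96, 9.04 and 9.70 in SCR, and 9.52, 9.60 and 9.70 in SID. CCND2 was raised in replicates 1 and 2 of both peptides, at 6.71, 6.76 and 6.77 in UT, 8.47, 8.67 and 6.77 in SCR, and 8.56, 7.69 and 6.47 in SID, and it was not called against UT.

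A list of 11 genes covered the axis of ARF, MDM2 and p53, including genes that p53 induces. Of these 11, 0 were called between SID and SCR on all arrays, with 4 higher, 7 lower and a median of -0.07. GADD45A, a stress-induced growth arrest gene, was at 8.54, 8.23 and 8.49 in UT, 9.42, 9.55 and 8.64 in SCR, and 10.47, 10.90 and 8.77 in SID. Replicates 1 and 2 formed 2 steps above UT, SCR in the middle and SID on top. In these replicates GADD45A rose by 1.20 in SID over SCR (SE 0.17, adjusted p = 0.0273), the 1 call of 11, where 1.77% of all probes were called higher and 2.64% lower. MDM2, the ubiquitin ligase that ARF restrains, was at 11.40, 11.37 and 11.48 in UT, and 11.79, 11.76 and 11.49 in SCR, and in SID it was 10.81 in replicate 2 and 11.74 in replicate 3, with replicate 1 nearer the former. Its difference on replicates 1 and 2 was -0.87 (adjusted p = 0.0212), inside the fold limit. SESN1, which encodes a stress-induced sestrin, differed from UT by -0.96 in SID and -1.09 in SCR and was not called. TP53INP1 went the other way, by 1.15 in SID and 1.22 in SCR, and was not called either. Against UT the list split 5 higher and 6 lower in SID, and 7 higher and 4 lower in SCR.

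MTAP feeds the methionine salvage path, and 16 genes of this path, of polyamine synthesis and of the PRMT5 complex, which methylthioadenosine inhibits, were measured. On all arrays 0 of 16 were called between SID and SCR, with 4 higher, 12 lower and a median of -0.09. SAT1, which acetylates polyamines for breakdown and export, was at 12.02, 12.04 and 11.89 in UT, 10.26, 10.61 and 11.62 in SCR, and 12.33, 12.83 and 11.28 in SID. SCR replicates 1 and 2 were thus the low arrays, and SID replicates 1 and 2 were above UT. On these replicates SAT1 rose by 2.15 in SID over SCR (SE 0.22, adjusted p = 0.0190), while in replicate 3 the difference was -0.34. WDR77, the partner of PRMT5, was at 10.53, 10.43 and 10.63 in UT, 10.59, 10.91 and 10.93 in SCR, and 9.72, 9.57 and 11.12 in SID, and on replicates 1 and 2 it fell by 1.11 (SE 0.14, adjusted p = 0.0232). MAT2A, which makes S-adenosylmethionine, was at 13.17, 13.18 and 13.23 in UT, 13.23, 13.18 and 13.21 in SCR, and 12.34, 11.55 and 13.27 in SID. Here UT and SCR were level and the 2 low arrays were SID replicates 1 and 2, with a difference of -1.26 (adjusted p = 0.0559) that missed the call. SMS, spermine synthase, differed by 0.43 on all arrays. The widest difference from UT was in ADI1, an enzyme of the salvage path, at 0.87 in SID and 1.19 in SCR.

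Regulators known to act on the INK4/ARF locus numbered 15, and 0 were called between SID and SCR on all arrays, with 5 higher, 10 lower and a median of -0.07. EZH2, the H3K27 methyltransferase of Polycomb, was at 11.14, 11.08 and 11.27 in UT, 11.94, 11.73 and 11.24 in SCR, and 10.99, 10.47 and 11.34 in SID. EED, which binds that mark, was at 10.73, 10.21 and 10.64 in UT, 10.62, 10.53 and 10.94 in SCR, and 9.58, 9.16 and 10.81 in SID. On replicates 1 and 2 EZH2 fell by 1.11 (SE 0.20, adjusted p = 0.0399) and EED fell by 1.21 (SE 0.17, adjusted p = 0.0257). Both were lowest on the same 2 arrays as CDKN2A, but EZH2 in SID replicate 1, at 10.99, was close to the 11.08 of UT replicate 2. SCR replicates 1 and 2 were the high arrays of EZH2, whereas CDKN2A was below UT there. SUZ12, the third core subunit, was at 12.08 and 11.79 on SID replicates 1 and 2 and between 12.03 and 12.31 elsewhere. CBX7, a Polycomb reader, differed by 0.64 and ID1, which opposes ETS factors, by -0.88 on all arrays, neither called. ETS1, an activator of the INK4A promoter, was at 8.56, 8.25 and 8.23 in UT, 11.31, 11.27 and 8.47 in SCR, and 11.22, 11.03 and 8.21 in SID. TBX3, a repressor of ARF, was at 10.43, 10.49 and 10.48 in UT, 8.30, 8.71 and 10.07 in SCR, and 8.37, 8.25 and 10.24 in SID. ETS1 was high and TBX3 low on replicates 1 and 2 of both peptides, with no gap between SCR and SID like that of CDKN2A.

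Of 8 genes reported elsewhere as targets of miR-31, 0 were called between SID and SCR on all arrays, with 4 higher, 4 lower and a median of 0.01. MMP16, a membrane-bound matrix metalloproteinase, was at 5.55, 5.88 and 5.81 in UT, 7.84, 7.67 and 5.84 in SCR, and 6.15, 5.90 and 5.77 in SID. SCR replicates 1 and 2 alone were high, as for ELAVL2, and on replicates 1 and 2 MMP16 fell by 1.73 in SID (SE 0.13, adjusted p = 0.0161), the 1 call of 8, beside 2.64% of all probes called lower and 1.77% higher. ITGA5, the fibronectin receptor subunit, was at 11.24, 11.26 and 11.28 in UT, 11.47, 11.94 and 11.44 in SCR, and 12.37, 12.39 and 11.47 in SID. MPRIP differed by -0.36 and LATS2 by 0.36 on all arrays.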

How the data were processed

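RNA of 9 samples, taken as MDA-MB-231, was measured on Affymetrix arrays. The deposited log2 signals per transcript cluster had been normalized by the authors, whose notes list RMA, Expression Console and Transcriptome Analysis Console, with no versions. No source states the scale, and log2 was inferred from the range. The study's single-probe analysis could not be repeated from these signals.

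Probes with 1 gene symbol were used (19460 of 33297, of which 19429 were matched by Entrez ID), and the probe with the highest mean stood for a gene. Probes with several symbols (1754) or none (12083) were left out. Groups were compared on all arrays by limma 3.58.1 (lmFit, eBayes; R 4.3.3), with Benjamini-Hochberg adjustment over all tested probes. The procedure was tested on simulated data with independent noise, smaller than the spread within groups here, and without the split between sets of arrays. That test therefore does not show how the procedure performs on these arrays. Genes were named as members, as the neighbours next to them, as the up to 4 largest differences of each list in a comparison, or as the 5 probes most like CDKN2A. List genes called in replicates 1 and 2, and others given for comparison, were named after their values were seen. Members and lists were chosen with earlier results of these data known. Deviations from the group mean correlated by 0.77, 0.57 and 0.79 between same-numbered SCR and SID arrays, over the limit of 0.1 set for pairing, and a block was tried. Replicates 1 and 2 correlated across numbers as well (0.75 and 0.60), and replicate 3 negatively with both (-0.83 to -0.64). Deviations from a group mean balance out, so a negative value follows where the other arrays of a group move together. These values thus do not tell pairing by number from the split between sets of arrays. Array weights, quantile normalization, median centring, other tests and filters, and single arrays left out were also tried. The number of arrays limits the precision. Promoter and miRNA sequences are from RefSeq (GRCh38.p14). All 5 members matched a promoter. Some listed genes are not reported here. Figures were drawn with matplotlib 3.10.9.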

Additional observations from a re-analysis of the deposited data

How the results depend on the processing

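The directions of the 5 members did not change under quantile normalization, centring, array weights, the replicate block or leaving out 1 array, except that DMRTA1 came to 0.00 without SCR replicate 2. Leaving out 1 array moved SID minus SCR between -2.59 and -0.79 for CDKN2A, -0.66 and -0.08 for CDKN2B, -2.24 and -0.66 for MTAP, -3.00 and -1.42 for MIR31HG, and 0.00 and 0.25 for DMRTA1. Without SID replicate 3 the values were -2.59, -0.66, -2.24 and -3.00 for the first 4. Without SID replicate 1 or 2 CDKN2A came to -0.93 and -0.79 and MTAP to -0.70 and -0.66, and without SCR replicate 3 CDKN2B came to -0.08. Each member has 1 probe, so no other probe could be tried.

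The number of probes called between SID and SCR, 0 on all arrays, was 761 with array weights, 859 on replicates 1 and 2 alone, 10 by the t-test between 2 groups at an unadjusted p under 0.05 with the fold limit, and 0 to 648 with 1 array left out (648 without SID replicate 3, 223 without SCR replicate 3). Between SID and UT it was 2389 with array weights, 135 by that t-test and 0 to 1946 with 1 array left out (1946 without SID replicate 3). Between SCR and UT it was 2116, 151 and 0 to 1071 (1071 without SCR replicate 3). The weights were lowest for SID replicate 3 (0.137) and SCR replicate 3 (0.176). With array weights 2 of 28 neighbours and 1 of 11 genes of the ARF list were called, beside 761 of all 19460 probes. So were 1 of 16 genes of the methionine and polyamine list, 1 of 15 regulators and 1 of 8 miR-31 targets. On replicates 1 and 2 alone, where 2.64% of all probes were called lower and 1.77% higher, the counts were 2, 1, 2, 2 and 1. With 1 array left out they were 0 to 1, and 0 to 3 for methionine and polyamines, beside 0 to 648 of all probes. Nothing is read from these counts. The CDK4/6 and RB list gave 0 calls in each of these alternatives.

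With the replicate number as a block, 0 probes were called in each of the 3 comparisons (lowest adjusted p = 0.526 between SID and SCR by limma), and no call changed. Between SID and UT same-numbered arrays correlated by 0.03 to 0.21, and between SCR and UT by -0.07 to -0.02, so these share only a number.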
